A study of Mus musculus with 12 samples.

Results

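The miR-181 family of mouse microRNAs has 4 mature members made from the 5′ arm of their hairpins: mmu-miR-181a-5p, mmu-miR-181b-5p, mmu-miR-181c-5p and mmu-miR-181d-5p, or miR-181a-5p to miR-181d-5p without the species prefix. They were selected by name from the mature miRNAs listed for each library, and are 4 of the 1374 known mature miRNAs listed. All 4 were among the 780 of 1422 known and predicted miRNAs with enough counts to be tested. The family was followed in the medial prefrontal cortex (mPFC) of adult male C57BL/6 mice that went through conditioned place preference (CPP), a test in which an animal learns to prefer a chamber paired with a drug. Small RNA was sequenced in 12 libraries, 3 for each of 4 treatment groups, and each library held RNA pooled from a pair of mice. SS mice received saline in place of both agents, CS mice received cocaine and saline, MS mice received l-methionine (MET) and saline, and MC mice received MET and cocaine. Methionine was given subcutaneously at 1 g/kg, 2 times a day for 10 days, according to the sample labels. The study's text also gives another dose, so the dose is uncertain. All groups shared the CPP procedure, and the mPFC was taken 2 h after the test on day 10. The comparisons asked whether the family differed with cocaine (CS vs SS), with methionine (MS vs SS), with methionine in mice given cocaine (MC vs CS) and with cocaine in mice given methionine (MC vs MS).

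A microRNA is cut from a hairpin transcript and loaded into an Argonaute protein, where bases 2 to 8, the seed, pair with target mRNAs and lower their translation and stability. miRNAs with the same seed can bind the same sites, so the members of a seed family are often considered together. The miR-181 family is abundant in lymphocytes, where miR-181a tunes T cell receptor signalling, and it is also expressed in brain, where miR-181a has been studied at synapses and in cocaine reward.

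The mature sequences are shown because the 4 members share one seed and differ so little elsewhere that reads of one can be close to another. Capitals mark the seed, and the sequences are those of RefSeq (GRCm38.p6).
mmu-miR-181a-5p: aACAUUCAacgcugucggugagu
mmu-miR-181b-5p: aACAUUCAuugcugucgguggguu
mmu-miR-181c-5p: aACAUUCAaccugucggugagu
mmu-miR-181d-5p: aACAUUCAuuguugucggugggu

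Among 1679 mature mouse miRNA names in the RefSeq table, these 4 had the seed ACAUUCA and 0 others did. The members were 22 to 24 bases long. By edit distance, the number of single-base changes, insertions or deletions that turn one sequence into another, miR-181a-5p and miR-181c-5p were 1 apart and miR-181b-5p and miR-181d-5p were 2 apart. The other pairs were 4 or 5 apart. Counted from the 5′ end, miR-181d-5p differs from miR-181b-5p within their shared length by C12U, and miR-181b-5p differs from miR-181a-5p by A9U, C10U and A21G. How reads that fit 2 members were assigned is not given in the sources used here, so the split between miR-181a-5p and miR-181c-5p, and between miR-181b-5p and miR-181d-5p, is uncertain.

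The members come from 6 hairpins on 3 chromosomes (GRCm38). Mir181a-1 and Mir181b-1 lie 97 bases apart on the plus strand, with the mature miR-181a-5p at chr1:137966468-137966490 and miR-181b-5p at chr1:137966650-137966673. In the GENCODE M21 annotation both hairpins lie in an intron of the noncoding gene Gm4258 on the same strand. Mir181b-1 lies in, and Mir181a-1 partly in, an exon of the lincRNA A430106G13Rik. Mir181a-2 and Mir181b-2 are 1019 bases apart on the plus strand, with miR-181a-5p at chr2:38852741-38852763 and miR-181b-5p at chr2:38853845-38853868, within introns of Nr6a1, a nuclear receptor gene on the opposite strand. Mir181c and Mir181d are 85 bases apart on the minus strand, in an intron of Nanos3 on the same strand, with miR-181c-5p at chr8:84178924-84178945 and miR-181d-5p at chr8:84178759-84178781. The mature miR-181a-5p and miR-181b-5p can each come from a pair of hairpins, and the counts do not separate their sources.

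Library totals ran from 7.77 M to 11.1 M counts, with 7.77 M in MC 16. Levels are given as CPM, the count scaled to a common library total, with no test. By clustering of the profiles of miRNA precursor families without mir-181, the libraries were divided into 3 sets, a number set in advance. These sets did not match the treatment groups, but were not independent of them. Set A held SS 12, CS 8 and CS 9, set C held CS 10, MC 16 and MC 17, and set B held the other 6 libraries, including all 3 of MS. All CS libraries thus lay outside set B, and set C held only libraries of mice given cocaine. Set and treatment are therefore partly confounded, also where set is a covariate. The median Pearson r of these profiles was 0.70 for 21 pairs of libraries in the same set and -0.64 for 45 pairs in different sets. The sets were formed from these same profiles, so this contrast was built in and is no test of the sets. For 12 pairs of the same treatment the median r was 0.15, and for 54 pairs of different treatments 0.03. The source of the sets is not named in the sources used here. Library MC 16 stood apart: over 175 abundant mature miRNAs its median log2 difference from the rest of its group was -0.97, and over the 150 of these with a sequence this difference had a Pearson r of 0.58 with GC content. That r was between -0.19 and 0.11 in the 9 libraries of SS, CS and MS, and -0.44 and -0.38 in MC 17 and MC 20, which are set against a rest that holds MC 16. The main differences of the members that involve MC are given with and without MC 16.

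miR-181a-5p was the most abundant member in all 12 libraries, followed by miR-181b-5p, miR-181c-5p and miR-181d-5p, in the same order in every library. The level ranges of neighbouring members did not overlap. Together the members took 3.81% to 6.70% of all mature miRNA counts. miR-181a-5p made up 70.8% to 79.1% of the family, miR-181b-5p 14.7% to 21.5%, miR-181c-5p 1.89% to 6.49% and miR-181d-5p 0.88% to 1.68%. In mature miRNA ranks, miR-181a-5p stood between 5 and 8, and miR-181d-5p between 79 and 119.

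The level of mmu-miR-181a-5p was 20843, 22471 and 26402 CPM in SS 12, 13 and 14. It was 24035, 19515 and 17421 CPM in CS 8, 9 and 10. It was 24753, 30464 and 22744 CPM in MS 3, 4 and 23. In MC 16, 17 and 20 it was 24845, 24858 and 26481 CPM. MC libraries were close together (25395 ± 941 CPM, SD, n = 3) and all lay above the CS libraries (20323 ± 3380), while SS (23238 ± 2858) and MS (25987 ± 4005) overlapped both.

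mmu-miR-181b-5p, whose hairpins sit beside those of miR-181a-5p, measured 3946, 4204 and 5766 CPM in the SS libraries. It measured 7307, 4489 and 3995 CPM in CS, so that CS 8 alone held the highest level of all 12 libraries and CS 10 nearly the lowest. In MS it was 4670, 6233 and 4567 CPM, and in MC 5750, 5951 and 5156 CPM. Every group overlapped each of the other groups, and the means ran from 4638 ± 985 CPM in SS to 5619 ± 413 CPM in MC (SD, n = 3).

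mmu-miR-181c-5p measured 1418, 1500 and 1779 CPM in SS and 2017, 1614 and 1428 CPM in CS. In MS it was 1944, 2584 and 1832 CPM, each above every SS library. In MC it was 598, 2108 and 2223 CPM. The 598 CPM of MC 16 was the lowest of all 12 libraries and rested on 4644 counts (581 to 615 CPM, exact 95% Poisson interval). The other MC libraries lay with the higher MS values. The mean of MC was 1643 ± 907 CPM with MC 16 and 2166 CPM without it.

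mmu-miR-181d-5p, the least abundant member, measured 236, 250 and 380 CPM in SS. It measured 568, 361 and 326 CPM in CS, 372, 562 and 387 CPM in MS, and 517, 540 and 422 CPM in MC. The groups overlapped in each of the 4 comparisons. The smallest count behind these values was 1946, in SS 12, which gave an exact 95% Poisson interval of 226 to 247 CPM. Such intervals cover counting error only and were narrow beside the SD within groups (79.3 CPM in SS).

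**Figure D1:**
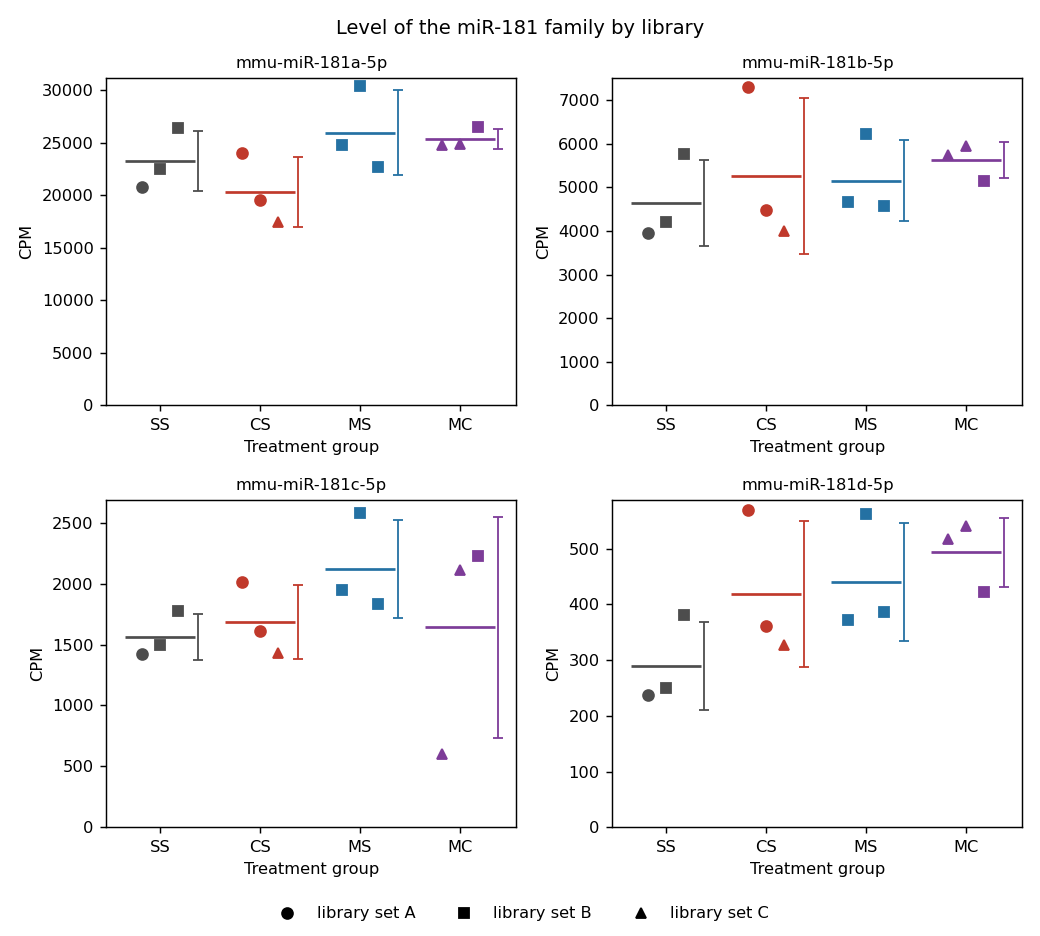
Level of each miR-181 member (y axis, CPM, from 0) in the 3 libraries of SS, CS, MS and MC, with horizontal lines for group means and bars for the SD. Point shape gives the library set (A, B or C). The MC libraries of miR-181a-5p all lie above CS, and MC 16 falls to 598 CPM for miR-181c-5p only.

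In the comparison of cocaine with saline (CS vs SS), no member passed the test, and which member differed most depended on the scaling. After scaling with TMM factors, which adjust each library for its composition, miR-181a-5p was at 19037, 18717 and 18541 in CS against 23014, 27196 and 27320 in SS. The groups did not overlap on that scale, as held for 10.4% of the 780 miRNAs in this comparison, but they overlapped in CPM, where 13.2% of the miRNAs did not. The log2 fold change was -0.46 (SE 0.21, 95% interval -0.93 to 0.0037), with an adjusted p of 0.994 (edgeR's quasi-likelihood test, p-values adjusted over 780 miRNAs by Benjamini-Hochberg). The log2 fold changes of miR-181b-5p, miR-181c-5p and miR-181d-5p were -0.10, -0.16 and 0.26, with SEs of 0.26, 0.26 and 0.30. Without TMM factors, which shifted the median miRNA by 0.26, the 4 values were -0.19, 0.18, 0.11 and 0.53, so that miR-181d-5p then differed most. Without MC 16, a library outside both groups that enters the shared estimate of the spread, that of miR-181a-5p was -0.41 (SE 0.09), with an unadjusted p of 0.0011 and an adjusted p of 0.659 (edgeR). Within set A, the TMM-scaled log2 ratio of CS over SS 12 was -0.29 for miR-181a-5p, 0.21 for miR-181b-5p, 0.0062 for miR-181c-5p and 0.61 for miR-181d-5p. Of the 7 marker lists, that of red blood cells separated the groups, with 2400 to 2687 CPM in CS and 1517 to 2232 CPM in SS and miR-144-5p at 0 in SS 14, and its part in the miR-181 values was not tested.

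With methionine (MS vs SS), miR-181c-5p was higher in every MS library than in every SS library, in CPM and after TMM scaling. This separation was common: it held for 22.8% of the 780 miRNAs in CPM and 23.5% after TMM scaling. The log2 fold change of miR-181c-5p was 0.18 (SE 0.26, 95% interval -0.40 to 0.76; adjusted p = 0.885, edgeR), and 0.11 without MS 4. miR-181d-5p had a log2 fold change of 0.36 (SE 0.30, 95% interval -0.30 to 1.02; adjusted p = 0.774, edgeR). Those of miR-181a-5p and miR-181b-5p were -0.09 and -0.09. Without TMM factors, which shifted the median miRNA by 0.24, the values from miR-181a-5p to miR-181d-5p were 0.16, 0.15, 0.44 and 0.61. Within set B, which holds all MS libraries, the TMM-scaled log2 ratio over SS 13 and 14 was 0.11 for miR-181c-5p and 0.23 for miR-181d-5p. Of the 7 marker lists, 3 separated MS from SS. The 5 red blood cell miRNAs summed to 2587 to 3992 CPM in MS and 1517 to 2232 CPM in SS, with miR-144-5p at 0 in SS 14, and the 4 liver and muscle miRNAs, with none at 0, to 108 to 2529 CPM in MS and 43.3 to 85.8 CPM in SS. The 2 endothelial miRNAs, with none at 0, summed to 7669 to 9877 CPM in MS and 6580 to 7375 CPM in SS. Their part in the miR-181 values was not tested. In such bulk tissue, fewer cells of a type and less RNA per cell cannot be told apart.

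Among mice given cocaine, every library of those also given methionine lay above every CS library in miR-181a-5p (MC vs CS), but the difference did not pass the test. The groups did not overlap in CPM, as held for 5% of the 780 miRNAs, nor after TMM scaling, as held for 8.85%. The log2 fold change was 0.52 (SE 0.21, 95% interval 0.05 to 0.98). The unadjusted p was 0.0326, and the adjusted p of 0.577 in edgeR's quasi-likelihood test did not pass. Without MC 16 both the log2 fold change and its SE were lower, at 0.25 and 0.10. With library set as a covariate the log2 fold change was 0.43 (SE 0.29), with an unadjusted p of 0.169 (edgeR). Over the alternatives run, the lowest adjusted p of this difference was 0.306 (edgeR). The TMM-scaled level was 36817 in MC 16 and 21211 and 22515 in MC 17 and MC 20. In CPM the log2 ratio of MC over CS was 0.32 with MC 16 and 0.34 without it. Within set C the log2 ratio in CPM of MC 16 and 17 over CS 10 was 0.51.

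The other members did not pass in MC vs CS either. miR-181d-5p had a log2 fold change of 0.47 (SE 0.30) and miR-181b-5p of 0.33 (SE 0.26), which became 0.14 and 0.02 without MC 16. miR-181c-5p had -0.03 (SE 0.26) and, without MC 16, 0.27. The smallest adjusted p of the 4 was that of miR-181a-5p. The neuronal marker miRNAs (5 of 5 listed, none at 0) summed to 103000 to 145623 CPM in MC and 138702 to 244113 CPM in CS. Their part in the miR-181 differences was not tested.

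In mice given methionine, adding cocaine (MC vs MS) gave log2 fold changes of 0.15 for miR-181a-5p, 0.32 for miR-181b-5p, -0.37 for miR-181c-5p and 0.37 for miR-181d-5p, and none passed (smallest adjusted p = 0.687, edgeR). All 4 members overlapped between the groups in CPM, where 8.33% of the 780 miRNAs did not, and after TMM scaling, where 8.59% did not. Without MC 16 these differences were -0.15, -0.03, -0.10 and -0.00048. Within set B, the 1 MC library differed from MS by TMM-scaled log2 ratios between -0.19 and -0.06.

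The interaction asks whether the difference made by cocaine depended on methionine, (MC - MS) - (CS - SS). It was 0.61 for miR-181a-5p (SE 0.30, 95% interval -0.05 to 1.26; adjusted p = 0.804, edgeR), 0.42 for miR-181b-5p, -0.21 for miR-181c-5p and 0.11 for miR-181d-5p. Without MC 16 these were 0.26, 0.029, 0.0094 and -0.30. Without TMM factors, which moved the median miRNA by -0.34, the values from miR-181a-5p to miR-181d-5p were 0.16, -0.06, -0.47 and -0.37. Across the 4 groups the smallest adjusted p of a member was 0.593.

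These counts of 0 members stood against a background of 0% of the 780 miRNAs called by edgeR's quasi-likelihood test in each of the 4 comparisons, the interaction and the test among groups. At an unadjusted p under 0.05, edgeR gave 22 miRNAs in CS vs SS, 75 in MS vs SS, 58 in MC vs CS, 65 in MC vs MS and 34 for the interaction, and 59 among groups. DESeq2 called 13 in MS vs SS, 5 among groups and 0 in the others, and none was a member. The median log2 fold change of the 4 members was -0.13 in CS vs SS, 0.05 in MS vs SS, 0.40 in MC vs CS and 0.23 in MC vs MS, and that of all 780 was 0.03, -0.03, 0.08 and 0.05. Without MC 16 the members' median was -0.08, 0.13, 0.19 and -0.07, and that of the 773 miRNAs then tested was 0.08, 0.05, -0.01 and -0.01.

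**Figure D2:**
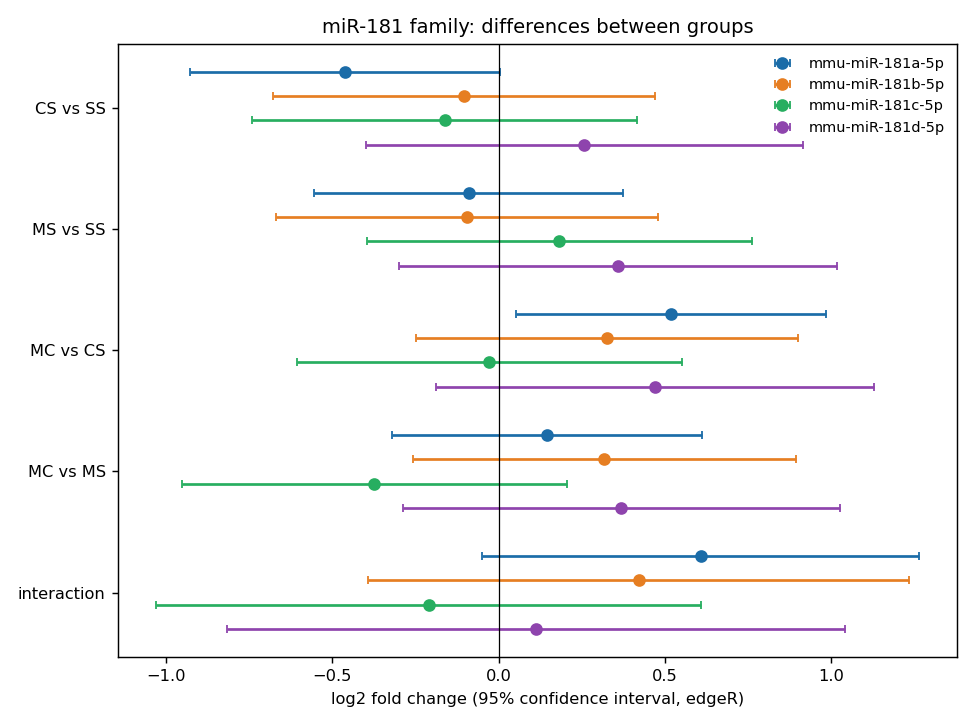
Log2 fold change of each member (x axis, edgeR fit of 12 libraries with TMM factors, n = 3 a group) in the 4 comparisons and the interaction. Points are estimates and bars 95% confidence intervals without adjustment. All intervals but that of miR-181a-5p in MC vs CS (0.05 to 0.98) include 0, and that difference did not pass the adjusted test and was 0.43 (SE 0.29) with library set as a covariate.

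Ratios between members in one library do not depend on the library total or on TMM factors. They were chosen after their values were seen and are a description with no test. miR-181d-5p counted 5.99%, 5.96% and 6.60% of miR-181b-5p, the member nearest to it in sequence, in SS 12, 13 and 14. It counted 7.78%, 8.05% and 8.17% in CS, 7.97%, 9.02% and 8.47% in MS, and 8.99%, 9.08% and 8.19% in MC. All 3 SS libraries lay below all of the other 9. It follows that SS 12 lay below CS 8 and CS 9 within set A. Likewise, SS 13 and SS 14 lay below the 3 MS libraries and MC 20 within set B. These orders within sets follow from the separation and add no further evidence. The ratio of miR-181d-5p to miR-181a-5p had the same layout, 1.11% to 1.44% in SS and 1.5% to 2.36% elsewhere. Thus 2 of the 6 pairs of members separated SS from the other 9 libraries, beside 3.2% of the 15225 pairs of mature miRNAs with at least 100 CPM on average, and the 2 share miR-181d-5p.

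The ratio of miR-181c-5p to miR-181a-5p was 6.81%, 6.68% and 6.74% in SS, a narrow band. It was 8.39%, 8.27% and 8.19% in CS and 7.85%, 8.48% and 8.05% in MS. In MC 17 and MC 20 it was 8.48% and 8.40%, but in MC 16 it was 2.41%. With MC 16 the SS libraries were not separated from the rest. Without it SS lay below the other 8 libraries in 3 of the 6 pairs of members, this one included, beside 6.8% of the 15225 pairs of mature miRNAs.

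MC 16 also set apart members whose hairpins are neighbours. miR-181d-5p counted 86.5% of miR-181c-5p in MC 16, against 16.7% to 28.2% in the other 11 libraries, and their hairpins lie 85 bases apart. Against the other MC libraries, MC 16 differed by a log2 of -1.85 for miR-181c-5p, and by -0.05, 0.05 and 0.11 for miR-181a-5p, miR-181b-5p and miR-181d-5p. Among the 175 abundant mature miRNAs, whose median was -0.97, miR-181c-5p stood at percentile 23.4 and the others at percentiles 70.9 to 74.9. The GC content of the members was 47.8%, 45.8%, 45.5% and 43.5% from miR-181a-5p to miR-181d-5p, and its part in these values was not tested.

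**Figure D3:**
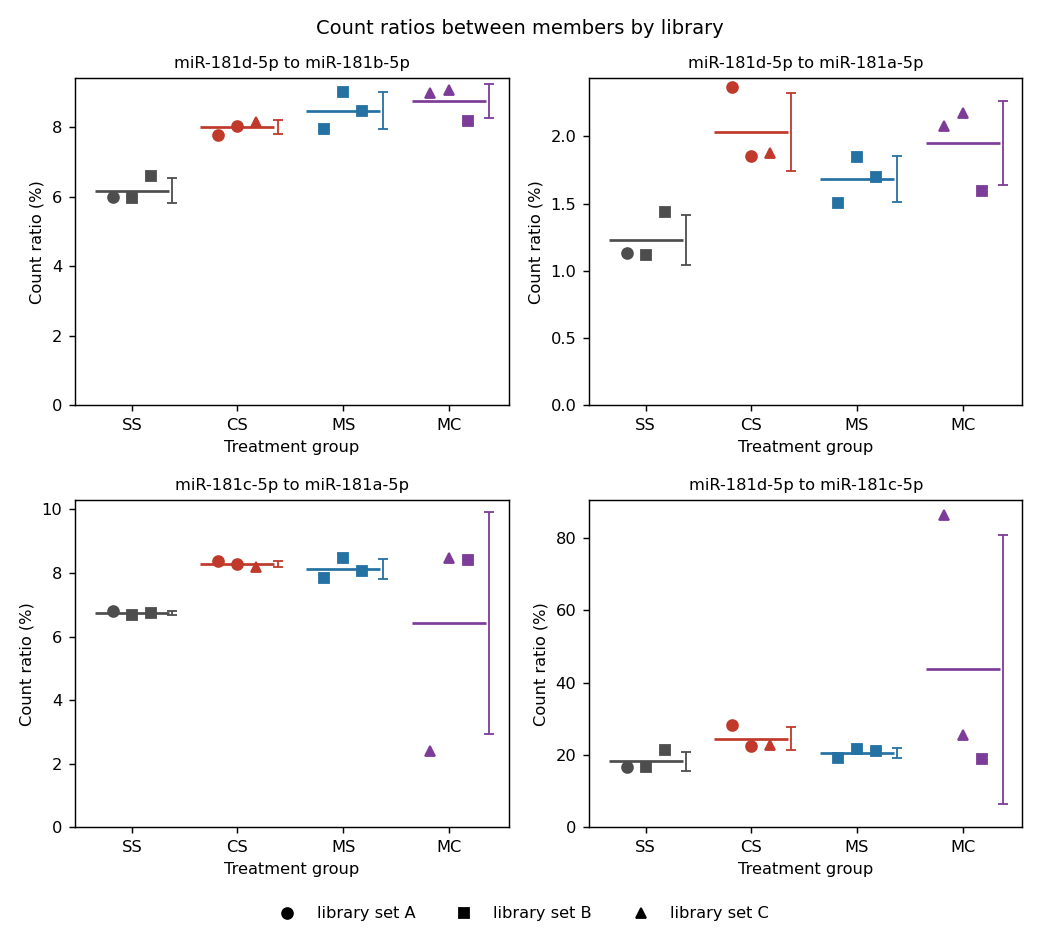
Count ratios between members (y axis, %, from 0) in each library, with group means (lines), SD (bars) and library set (point shape). The SS libraries lie lowest for miR-181d-5p to miR-181b-5p (5.96% to 6.60%), and MC 16 stands apart for the ratios that contain miR-181c-5p.

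As a description over 12 libraries, which share totals and sets, the log2 TMM-scaled levels of miR-181b-5p and miR-181d-5p had a Pearson r of 0.84, and those of miR-181a-5p and miR-181b-5p of 0.75. Without MC 16 these fell to 0.56 and 0.39, and that of miR-181a-5p and miR-181d-5p went from 0.52 to -0.09. In CPM these 3 pairs hardly moved, with 0.89, 0.70 and 0.60 over 12 libraries and 0.89, 0.70 and 0.59 without MC 16. After TMM scaling, miR-181c-5p had r of -0.41, -0.63 and -0.54 with miR-181a-5p, miR-181b-5p and miR-181d-5p. Without MC 16 these were 0.72, 0.33 and 0.46. In CPM over 12 libraries they were 0.32, 0.20 and 0.16. Their negative sign thus rested on MC 16 together with TMM scaling. Outside the family, the TMM-scaled levels of 341 miRNAs of at least 10 CPM were searched. Here miR-125a-5p was most like miR-181d-5p (r = 0.93) and miR-3475-3p most like miR-181b-5p (0.92). For miR-181c-5p it was miR-350-3p (0.90), and for miR-181a-5p it was miR-1981-3p (0.87). Next in order came miR-337-5p (0.82) and miR-127-3p (0.81) for miR-181a-5p, miR-541-5p (0.91) and miR-6540-5p (0.90) for miR-181b-5p, miR-148a-3p (0.90) and miR-323-3p (0.89) for miR-181c-5p, and miR-7044-3p and miR-501-3p (0.91 and 0.90) for miR-181d-5p. These likenesses also depended on MC 16: without it the r of the 4 leading miRNAs was 0.82, 0.75, 0.57 and 0.74 in the order given, and of the 3 most similar miRNAs 0 were kept for miR-181a-5p and miR-181d-5p and 1 each for miR-181b-5p and miR-181c-5p.

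The 3′ arms of the same hairpins, usually discarded after processing, were far less abundant, and the members' selection did not use them. The a and c arms with enough counts have one seed of their own, in capitals (RefSeq, GRCm38.p6), which differs from that of the 5′ arms.
miR-181a-1-3p: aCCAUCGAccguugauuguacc
miR-181c-3p: aCCAUCGAccguugaguggacc

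miR-181a-1-3p, which comes from Mir181a-1 alone, measured 74.6, 69.7 and 98.8 CPM in SS and 93.2, 88.5 and 57.7 CPM in CS. It measured 88.0, 115 and 66.9 CPM in MS and 19.8, 87.0 and 98.1 CPM in MC. It therefore counted 0.29% to 0.45% of miR-181a-5p in 11 libraries and 0.08% in MC 16, where the 5′ arm was not low. The groups overlapped in all 4 comparisons, and its log2 fold changes lay between -0.42 and -0.10, with SEs of 0.35 (smallest adjusted p = 0.759, edgeR).

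miR-181c-3p measured 17.1, 16.9 and 7.31 CPM in SS, 24.3, 17.8 and 16.9 CPM in CS, 16.0, 21.3 and 15.8 CPM in MS and 4.89, 17.1 and 24.3 CPM in MC. SS 14 and MC 16 were the lowest. Its log2 fold changes lay between -0.35 and 0.21, with SEs of 0.41, and none passed (smallest adjusted p = 0.723, edgeR). In MC 16 both arms of Mir181c were low together, and miR-181c-3p counted 0.82% of miR-181c-5p, within the 0.41% to 1.21% of the other libraries. The remaining 3′ arms were rarely counted, with 48 counts in all for miR-181b-1-3p, 41 for miR-181d-3p and 2 for miR-181b-2-3p.

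Reads assigned to the mir-181 precursor were deposited as 1 row for the family. How they were divided from reads of the mature arms is not given in the sources used here. The row held 6498, 7723 and 8398 CPM in SS and 7326, 5797 and 4476 CPM in CS. In MS it held 7640, 10088 and 7079 CPM, and in MC 3641, 5824 and 8308 CPM. As a share of precursor and 5p counts together this was 19.7%, 21.4% and 19.7% in SS, 17.8%, 18.2% and 16.2% in CS, 19.4%, 20.2% and 19.3% in MS, and 10.3%, 14.8% and 19.5% in MC. The CS libraries all lay below those of SS. Such separation of CS from SS was found for 21.7% of 23 miRNA families with a precursor row of at least 100 CPM on average. The 3 lowest shares belonged to the 3 libraries of set C, which hold both CS and MC, and 1 library of MC outside that set (MC 20) lay with SS and MS. MC and MS overlapped through MC 20 alone, and 30.4% of those families did not overlap between MC and MS. MS overlapped SS, and MC overlapped CS, where 21.7% and 17.4% of the families did not.

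**Figure D4:**
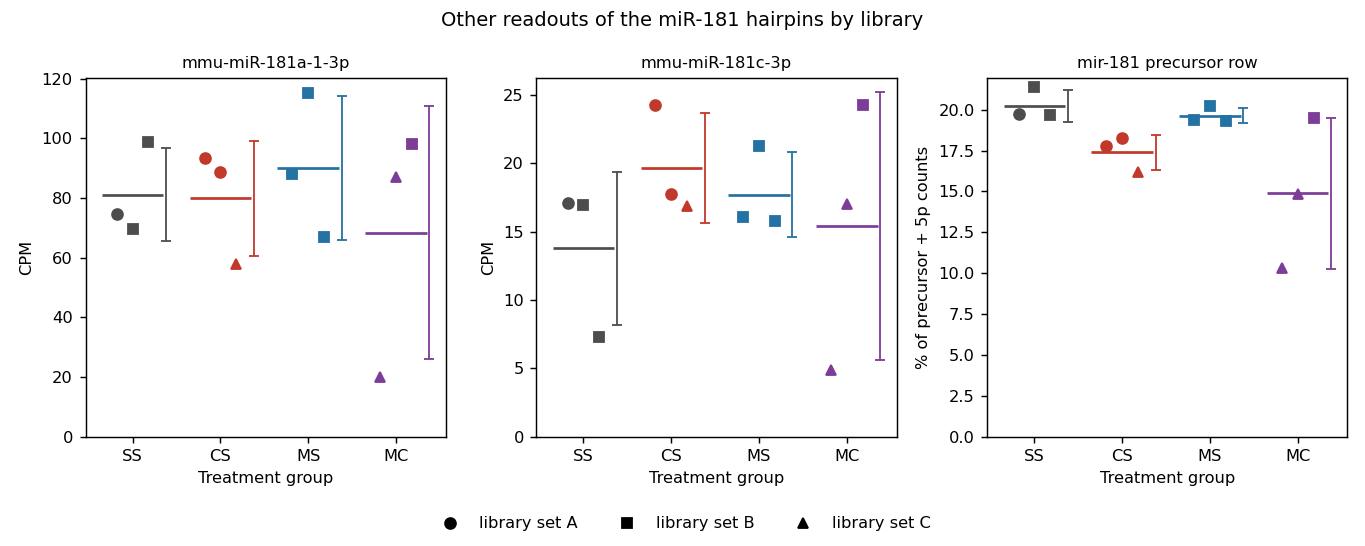
Levels of miR-181a-1-3p and miR-181c-3p (CPM) and the precursor row as a percentage of precursor and 5p counts, in each library, with group means (lines), SD (bars) and library set (point shape). MC 16 is lowest in all 3 panels (19.8 CPM, 4.89 CPM and 10.3%).

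For context, 6 other miRNAs that earlier work linked to cocaine reward, let-7d-5p, miR-124-3p, miR-132-3p, both arms of miR-212 and miR-495-3p, had 0 of 6 past the test in each of the 4 comparisons by edgeR's quasi-likelihood test. At an unadjusted p under 0.05 in edgeR there was 1 in MS vs SS, miR-212-5p, beside 9.6% of the 780 miRNAs. The same miRNA alone was under that limit for the interaction, beside 4.4% of the 780, and among groups, beside 59 of the 780. The median log2 fold change of the 6 was -0.50 in CS vs SS, -0.44 in MS vs SS, -0.21 in MC vs CS and -0.0044 in MC vs MS. That of all 780 was 0.03, -0.03, 0.08 and 0.05. In CS vs SS the SEs of the 6 ran from 0.22 to 0.79. By its markers the tissue was rich in neuronal miRNAs: the 5 summed to 103000 to 270866 CPM, none at 0, above every other list in every library. The oligodendrocyte (3), leukocyte and microglia (5), endothelial (2) and choroid plexus (4) lists summed to at most 1733, 2313, 9877 and 2519 CPM, with miR-448-3p of the last at 0 in MS 23. The red blood cell list (5) reached 3992 CPM, with miR-144-5p at 0 in SS 14. The liver and muscle list (4), which should be low in cortex, summed to 38.1 to 2529 CPM, with the highest value in MS 3.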

How the data were processed

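Per their methods, the authors filtered reads on quality, adapters and length, mapped them with AASRA and set miRNA matches apart. Bowtie and the build mm10 stand in the submitters' processing notes, and versions are not given in the sources used here. The authors deposited, for each small RNA and library, counts without normalization. Beside them they deposited TPM, the count scaled to the library total, which served as a check only.

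The main test was the quasi-likelihood F-test of edgeR 4.0.16 (R 4.3.3), run on miRNAs that reached 5 counts in 3 or more libraries (TMM factors from miRNAs, library size set to the total, 1 coefficient per group, 12 libraries, 8 residual degrees of freedom). Benjamini-Hochberg adjustment ran over 780 miRNAs, with a threshold of 0.05 and no limit on the fold change. The study's methods name DEGseq, which was not run here. Nothing in the sources says whether pools came from separate cages or days, so p-values measure the spread between these libraries.

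Members and lists were chosen with earlier results of these data known. Named miRNAs are the members, the family's other arms and precursor, any miRNA with their seed, the 3 most similar miRNAs per member (Pearson r of log2 TMM-normalised CPM + 1, mean of at least 10 CPM) and a cocaine list. Library sets came from average-linkage clustering (1 - r) of log2(CPM + 0.5) profiles of precursor families, cut into 3 sets. By chi-square tests of the 66 library pairs, none were duplicates (smallest statistic per degree of freedom 183.6). Python 3.11.15, pandas 2.3.3 and scipy 1.17.1 were used for the rest. Of the steps, the edgeR fit was tested on simulated counts, for CS vs SS. Alternatives were DESeq2 1.42.0, other TMM factors or none, other filters, known miRNAs alone, library set as a covariate, the 6 libraries of a comparison, and each library left out. Ratios, within-set values, and levels, medians, ratios and similar miRNAs without MC 16 were added after seeing the data. Other small RNA classes were not analysed here.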

Additional observations from a re-analysis of the deposited data

How the results depend on the processing

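Members passed the threshold in 0 of the alternatives run for each of the 4 comparisons and the interaction, with a lowest adjusted p of 0.261, for miR-181c-5p in MS vs SS. Counts of miRNAs called moved from 0 to 13 in MS vs SS and to 5 among groups with DESeq2, and to 3 in MS vs SS with only the 6 libraries of the comparison. With each library left out they ran from 0 to 7 in MS vs SS and from 0 to 3 among groups, the highest without MC 16. The other comparisons stayed at 0. The cause was not tested. Scaled to the total of mature miRNAs, the log2 level of miR-181a-5p in MC relative to the 12 libraries was 0.20, against 0.11 in CPM.

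Several differences near 0 changed sign. Without TMM factors they were 0.18 (miR-181b-5p) and 0.11 (miR-181c-5p) in CS vs SS, 0.16 (miR-181a-5p), 0.15 (miR-181b-5p) and 0.15 (miR-181a-1-3p) in MS vs SS, -0.033 (miR-181a-5p) in MC vs MS, and -0.059 (miR-181b-5p) and -0.37 (miR-181d-5p) for the interaction. With library set as a covariate they were 0.080 (miR-181c-5p, CS vs SS), 0.045 (miR-181c-3p, MC vs MS) and -0.013 (miR-181d-5p, interaction), and with TMM factors from all features -0.00057 (miR-181d-5p, interaction). With single libraries left out, the lowest and highest values were, in CS vs SS, -0.16 and 0.40 for miR-181c-3p. In MS vs SS they were -0.20 and 0.0018 for miR-181b-5p, -0.22 and 0.012 for miR-181a-1-3p and -0.28 and 0.28 for miR-181c-3p. In MC vs CS they were -0.21 and 0.27 for miR-181c-5p and -0.50 and 0.13 for miR-181a-1-3p. In MC vs MS they were -0.15 and 0.29 for miR-181a-5p, -0.027 and 0.51 for miR-181b-5p, -0.00048 and 0.59 for miR-181d-5p and -0.58 and 0.089 for miR-181c-3p. For the interaction they were -0.39 and 0.0094 for miR-181c-5p, -0.30 and 0.33 for miR-181d-5p and -0.39 and 0.15 for miR-181a-1-3p. Of these, the changes of sign in MC vs CS and MC vs MS came without MC 16. Of the 3 miRNAs most like each member, 1 or 2 were kept under Spearman's rho or without TMM factors, and 0 or 1 without MC 16.

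No paired analysis was possible because the groups share no replicate numbers. Depth was no limit for the 5′ members, each with at least 1946 counts a library, but it was for the rare 3′ arms. With 3 libraries a group, MC 16 and the library sets bear on every comparison that holds them.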
